A study of Mus musculus with 3 samples.

Results

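Daily prostaglandin E2 (PGE2) given after nephrotoxic serum was set against the serum alone in mouse kidney, with the array labelled NTS/PGE2 compared with the array labelled NTS. Genes were chosen by brightness, with no threshold on their difference. Of 19938 genes with a probe set that names 1 gene, 11699 entered the comparison. In these the brighter of the 2 values was no lower than its array's median over all probe sets. A gene dim on 1 array therefore entered only through the other, so the choice is not independent of the difference. The study used female CBL/6 mice of 8 to 10 weeks, and total RNA of kidney was hybridised to Affymetrix Mouse Gene 1.0 ST arrays, which read a transcript through probes along its exons. Both compared groups had received 1 injection of sheep nephrotoxic serum at 13.5 ug per g of body weight. In the NTS/PGE2 group PGE2 followed at 5 ug per g of body weight each day from day 2, and mice were killed on day 7. The labels name no vehicle for the NTS group, and the remaining array came from non-treated control mice. There was 1 array in each group, and whether its RNA came from 1 mouse or from several pooled mice is not given in the sources used here. No difference therefore has a replicate check, no test was run, and every value below is only as precise as 1 array allows.

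Nephrotoxic serum holds antibodies against the glomerulus, the filter of the kidney, and it produces an immune glomerulonephritis in which the tubules downstream are injured too. PGE2 is a lipid made from arachidonic acid by cyclooxygenases and PGE synthases. It acts on 4 G protein-coupled receptors, EP1 to EP4, of which EP2 and EP4 raise cyclic AMP, EP3 mostly lowers it and EP1 signals through calcium, and it is cleared by the transporter Slco2a1 and the dehydrogenase Hpgd. In the kidney it is known for its part in renal blood flow, renin release and the handling of salt and water.

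Values are on the log2 scale as deposited, so that 1 unit is 2-fold, and values on the 3 arrays are given in the order control, NTS, NTS/PGE2. A difference is NTS/PGE2 minus NTS unless said otherwise. The tissue label matched its defining genes: uromodulin (Umod), the main protein of normal urine, read 13.70, 13.64 and 13.74, and the proximal tubule phosphate transporter Slc34a1 read 13.64, 12.21 and 13.55. Xist was bright on all 3 arrays, at 12.38, 12.49 and 12.38, and the Y-linked genes Eif2s3y, Uty and Kdm5d lay below the 25th percentile of each array, which fits the label female. The median over all probe sets was 7.11, 7.11 and 7.14. Fat stood out on the control array alone: the brown fat gene Ucp1 read 11.84 there, 5.72 on NTS and 5.91 on NTS/PGE2, so a control value of a gene that fat expresses may include fat. Between NTS/PGE2 and NTS, 2 of 14 fat genes were past 2-fold higher, the lipase Lpl, at 11.77, 10.03 and 11.75, and Fabp4, a fatty acid binder also of endothelium, at 11.98, 8.96 and 10.00. Lower were the lipid droplet genes Plin4, at 8.31, 9.27 and 7.35, and Cidec, at 11.11, 8.25 and 6.94. The part of fat in the differences below was not tested.

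Of the 11699 genes, 486 (4.15%) on NTS/PGE2 exceeded their NTS value at least 2-fold and 384 (3.28%) fell short of it at least 2-fold, which is 7.44% either way. The genes that were higher and those that were lower reached similar sizes. A 4-fold difference was passed by 90 higher and 68 lower genes, an 8-fold difference by 19 and 20, a 16-fold difference by 5 and 8, and a 32-fold difference by 0 and 2. The bulk of the genes was nearly alike on both arrays. The median difference was 0, 76.6% of genes lay within 0.5 of each other, and 18.9% had exactly the same value on both arrays. The 5th and 95th percentiles of the difference were -0.82 and 0.92.

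The 2 sets of genes had different levels. The 486 higher genes had medians of 9.96, 8.33 and 9.89 on the 3 arrays, and the 384 lower genes medians of 8.24, 9.49 and 7.95. Both sets were chosen by a difference that holds the single NTS array, so its distance from control in them is a description and no separate evidence, here and wherever a gene below is called lowest or highest on NTS. When the 11699 genes were divided by mean level into 4 bins of nearly equal size, 6.32% of the brightest bin stood at least 2-fold higher, against 3.32%, 3.08% and 3.90% in the dimmer bins. The shares at least 2-fold lower were 3.86%, 2.67%, 3.18% and 3.42% from the dimmest to the brightest bin. The share of higher genes was thus largest in the brightest bin and the share of lower genes in the dimmest. The filter bears on the dimmest bin, whose means began at 5.86, below the array medians. A gene with a mean below the medians entered only through its brighter value. The further its mean lay below them, the larger the difference this required. The shares of that bin are therefore no clean measure of an effect of level.

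**Figure D1:**
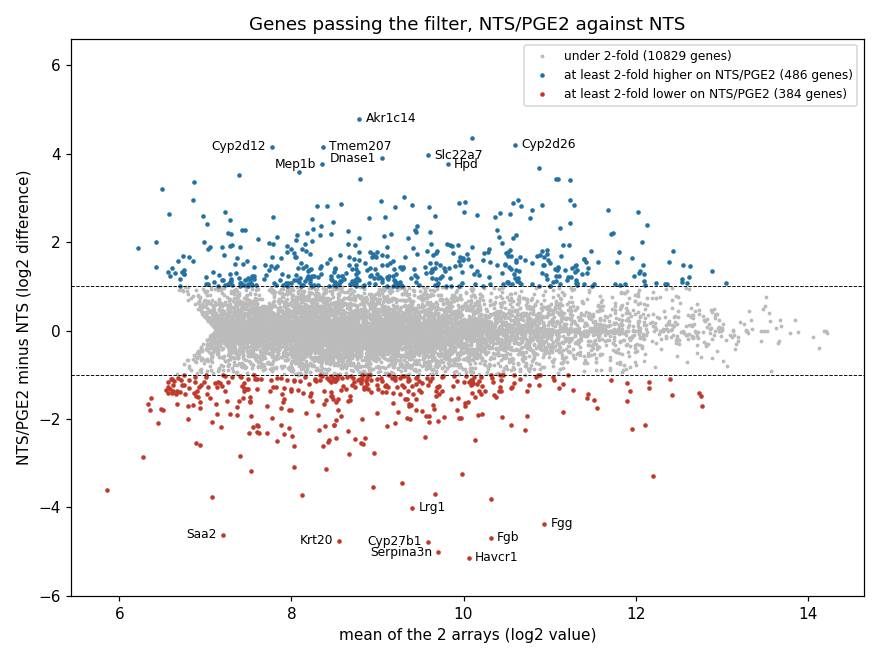
Difference between the NTS/PGE2 and NTS arrays (vertical axis, log2) against the mean log2 value of both arrays (horizontal axis) for the 11699 genes that passed the filter, 1 point a gene. Blue points are the 486 genes higher on NTS/PGE2 by 2-fold or more and red points the 384 lower by 2-fold or more, beyond the dashed lines at 1 and -1; the 8 largest differences each way that carry a usable gene name are labelled, from Akr1c14 at 4.80 down to Havcr1 at -5.13.

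A measure of the spread between probe sets of a gene was available from genes with more than 1 probe set. In 500 genes that had 2 bright probe sets, the difference of 1 probe set had an SD of 0.22. Both probe sets were read on the same 2 arrays, so this SD leaves out the spread between mice and between arrays. Of 32 genes past 2-fold that had at least 2 bright probe sets, 31 had all of them on the same side of 0. These genes were chosen by the average of their probe sets, read on the same 2 arrays, so this agreement is largely built in. At the edge of the filter the differences were small: the 5 genes just inside it, from Gsc to Ascl4, lay between -0.09 and 0.23, and the 5 just outside it between -0.40 and 0.02.

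The 30 largest positive differences ran from 7.06-fold to 27.8-fold, and 9 of the 30 were solute carriers (Slc). The hydroxysteroid dehydrogenase Akr1c14 led, at 10.58 on control, 6.39 on NTS and 11.19 on NTS/PGE2. Dnase1, the secreted deoxyribonuclease, read 11.09 on control and 7.10 on NTS, with a difference of 3.90, and the carboxylesterase Ces1f read 10.07, 7.80 and 10.81. Slc16a4, of the monocarboxylate transporter family, read 11.96, 9.16 and 12.10. The peroxisomal enoyl-CoA isomerase Eci3 read 11.60, 8.57 and 11.47, and Prelp, a leucine-rich proteoglycan of connective tissue, read 10.32, 7.15 and 10.01. In each of these 6 genes the NTS array was the low one, and the control and NTS/PGE2 arrays lay within 0.75 of each other. Ranbp3l, Map3k7cl and Clec2h, at differences of 3.43, 2.89 and 2.82, also belonged to the 30. In 4 of the 30, Cyp2d12, Slc22a22, Slc22a29 and Slc22a30, the NTS value lay below that array's 25th percentile of 5.78, so the size of their difference may be set by the background.

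The 30 largest negative differences ran from 5.51-fold to 35.1-fold and held injury markers, acute phase proteins, cell division genes and the keratin Krt20, and no solute carrier. Among those described nowhere below, Depp1, a gene induced by FOXO factors and fasting, read 8.51, 11.01 and 7.55. Timd2, of the same gene family as Havcr1, read 6.44, 9.11 and 5.94. The angiopoietin-like gene Angptl7 read 7.26, 9.67 and 7.06, carboxypeptidase E (Cpe), which trims prohormones, read 7.79, 10.11 and 7.55, and the aldo-keto reductase Akr1b8 read 7.57, 9.08 and 6.59. All 5 were highest on the NTS array, and all 5 lay below control on the NTS/PGE2 array by between 0.20 and 0.98. The small proline-rich genes Sprr2f and Sprr2g, which build the envelope of squamous cells, read 5.24, 8.97 and 5.19, and 5.02, 7.70 and 4.84. Their NTS/PGE2 values lay below the 25th percentile of 5.79, as did those of Saa1, Saa2 and Anln.

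**Figure D2:**
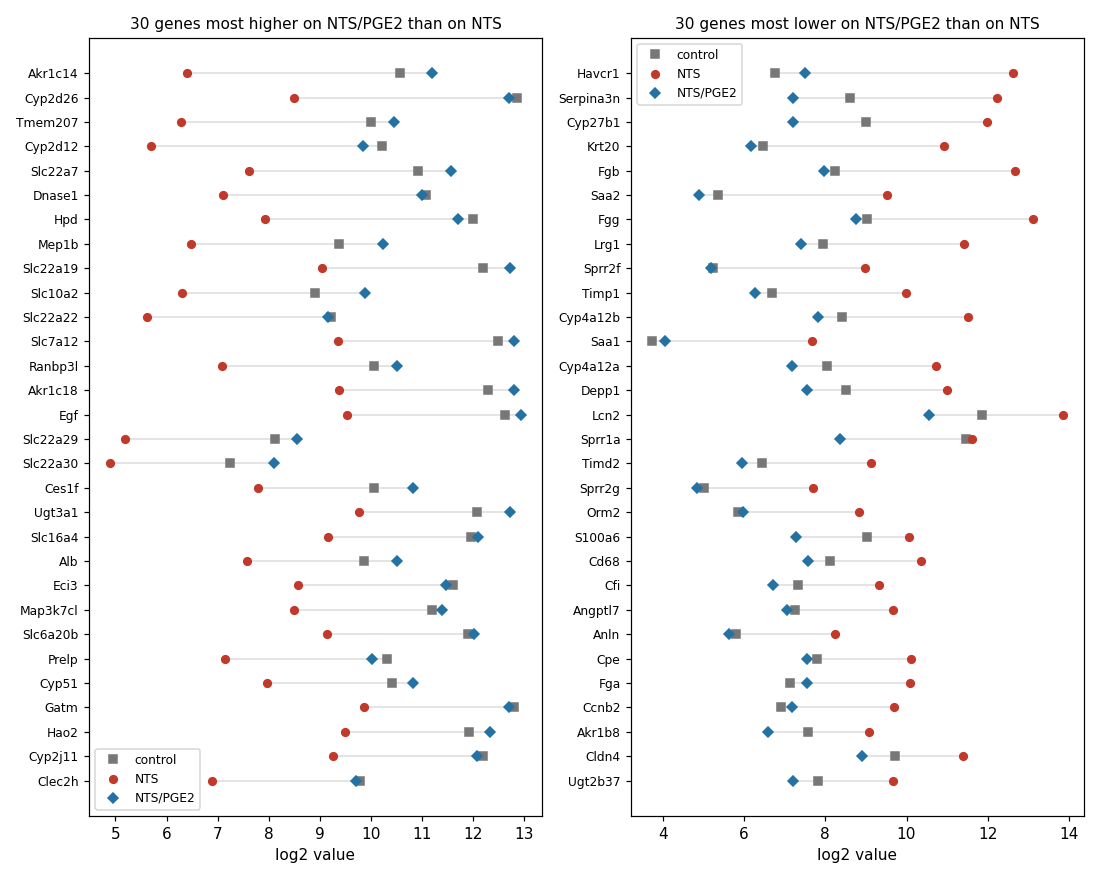
Log2 values on the control array (grey squares), the NTS array (red circles) and the NTS/PGE2 array (blue diamonds) for the 30 genes with the largest positive (left) and the 30 with the largest negative (right) difference between NTS/PGE2 and NTS, 1 row a gene, largest first. In most rows the red point lies alone and the grey and blue points lie close together; Sprr1a, with 11.45 on control, 11.60 on NTS and 8.36 on NTS/PGE2, is an exception.

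The comparison was then read through 63 gene lists for cell types, pathways and stress responses. A member of a list is counted higher or lower where it passed the filter and differed at least 2-fold, to be read against 2.44% of all 19938 measured genes higher and 1.93% lower. A list's median difference is taken over all its measured members, against 0 for all genes. Both proximal tubule lists, gluconeogenesis, the thick ascending limb, amino acid breakdown and the endothelium had the 6 highest medians, and the lists of tubular injury, mitosis and acute phase proteins the lowest.

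**Figure D3:**
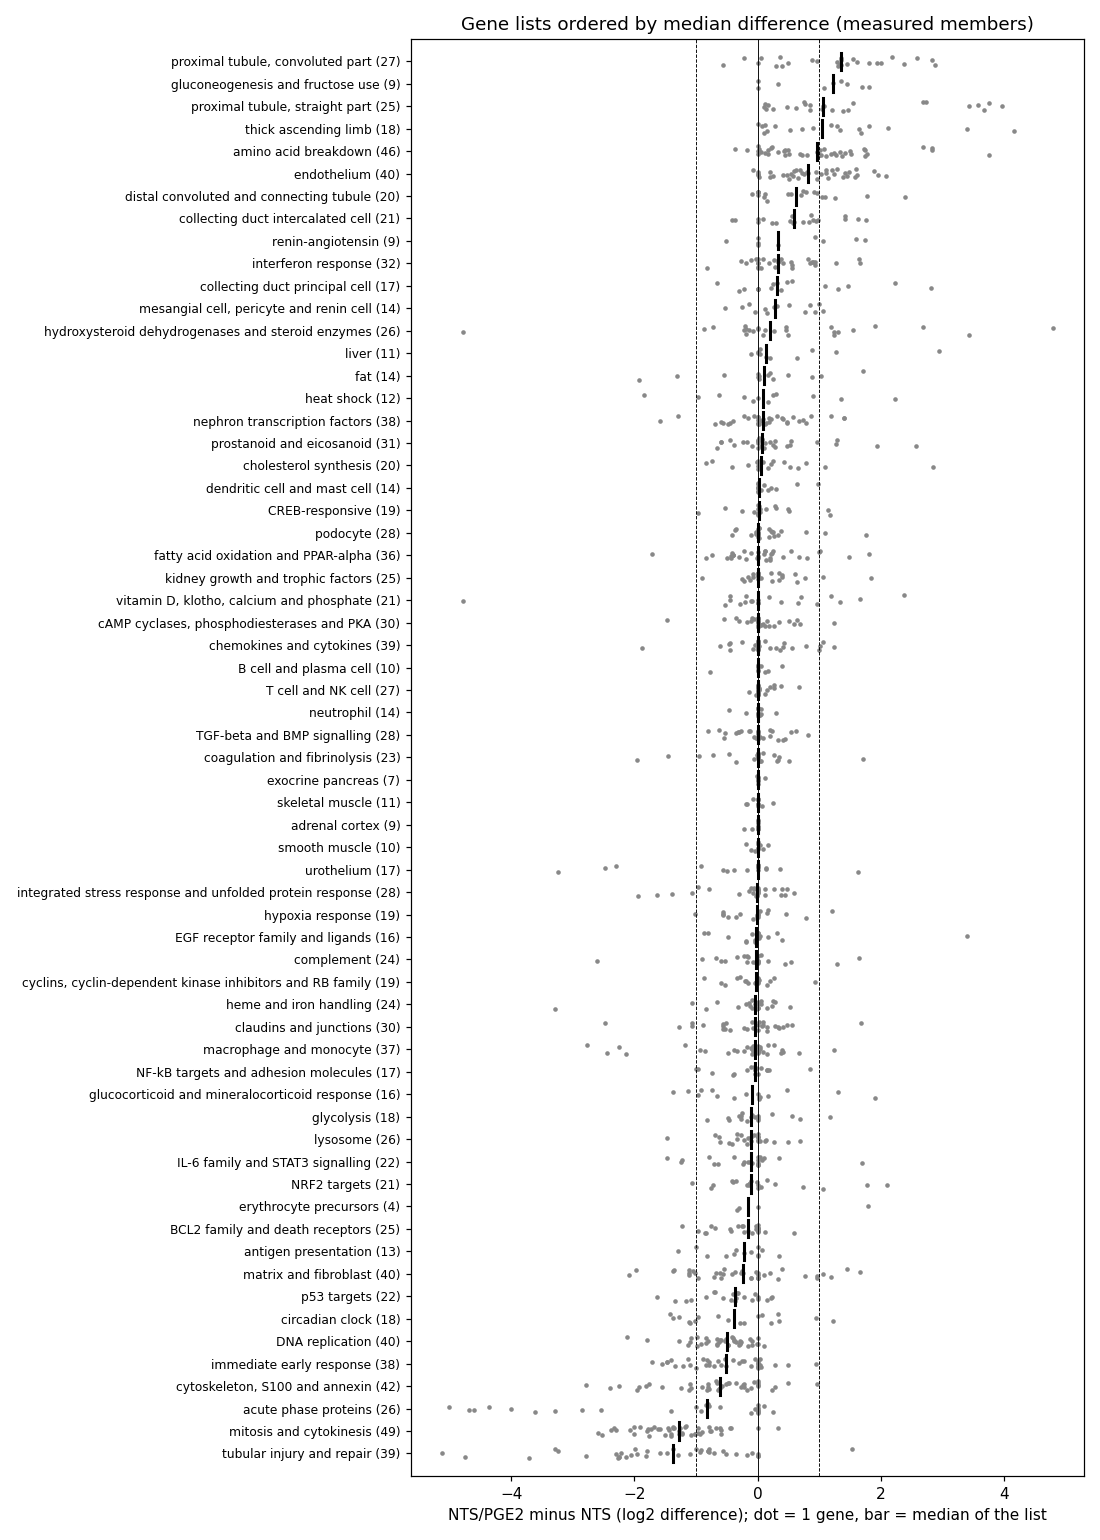
Difference between NTS/PGE2 and NTS (horizontal axis, log2) for every measured member of the 63 gene lists, 1 grey dot a gene and a black bar at the list's median, with the number of measured members in parentheses and dashed lines at 2-fold. Medians run from 1.35 for the convoluted part of the proximal tubule to -1.37 for tubular injury and repair.

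Genes of the proximal tubule, which takes back most of the filtered glucose, amino acids, phosphate and protein, mostly stood higher with PGE2. Of 27 measured genes of its convoluted part, 17 were counted higher and 0 lower, with a median of 1.35. The difference was above 0 in 24, below 0 in 2 and exactly 0 in 1, Amn. Below 0 were the solute carriers Slc7a8 and Slc6a19, at differences of -0.55 and -0.21, and both were lowest on NTS/PGE2. Slc4a4 differed by only 0.06. The imino acid transporter Slc6a20b read 11.89, 9.13 and 12.02, and Gatm, the first enzyme of creatine synthesis, read 12.79, 9.87 and 12.71. Dpep1, a brush border dipeptidase, read 11.23, 8.37 and 10.96, and the phosphate transporter Slc34a3 read 9.97, 7.16 and 9.53. The endocytic receptor megalin (Lrp2), which retrieves filtered protein, read 12.93, 11.53 and 13.34, and the water channel Aqp1 read 12.05, 10.59 and 12.21. All 6 were lowest on NTS, and the NTS/PGE2 value of Lrp2, Aqp1 and Slc6a20b lay above control. The organic anion transporter Slc22a8, the inositol oxygenase Miox and the urate and phosphate transporter Slc17a3 differed by 2.18, 2.00 and 1.94. In a whole kidney, fewer cells of a type and less RNA per cell cannot be told apart, here or in any list below.

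The straight part of the proximal tubule, the segment most prone to injury, gave 14 of 25 genes counted higher and 0 lower, and all 25 had a difference above 0, with a median of 1.06. Of the 25, 21 passed the filter and the others were dim on both arrays. The organic anion transporter Slc22a7 read 10.92, 7.61 and 11.57. The bile acid transporter Slc10a2 read 8.90, 6.30 and 9.89, and the meprin subunit Mep1b, a brush border protease, read 9.38, 6.48 and 10.24. Slc22a19 read 12.19, 9.04 and 12.72, and the amino acid transporter Slc7a12 read 12.49, 9.36 and 12.80. In these 5 genes the NTS/PGE2 value was the highest of the 3. Slc22a13, a nicotinate and urate carrier, and the aminoadipate aminotransferase Aadat differed by 2.74 and 2.69, and Akr1c21 and the cytochrome Cyp2e1 by 1.56 and 1.47.

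The promoter of Slc10a2 is shown because it is the brush border transporter of this group whose upstream bases hold a match to the HNF1-type letters, a motif known from genes of the liver and proximal tubule. It is the 250 bases before the RefSeq start in GRCm38.p6 at chr8:5105288-5105537 on the minus strand, written 5′ to 3′ with the match in capitals.
Slc10a2: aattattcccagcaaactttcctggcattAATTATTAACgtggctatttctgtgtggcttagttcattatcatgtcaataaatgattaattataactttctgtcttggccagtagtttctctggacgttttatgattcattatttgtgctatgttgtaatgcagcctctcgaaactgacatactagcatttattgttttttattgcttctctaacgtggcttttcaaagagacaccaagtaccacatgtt
The letters searched were GTTAATNNTT on both strands, and the match ran from -221 to -212 counted from the start. Such a match stood in 1 of 24 promoters of the convoluted and 1 of 19 of the straight part list, against 0.826% of the 15614 measured genes with a promoter in the table, so it was not a common feature of these lists. Slc22a19 and Slc22a13, chosen by the same rule of size, hold none and are not shown.

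The Slc22 family of organic ion transporters was the family with the highest median among those of more than 10 measured members. Of 23 measured genes, 11 were counted higher and 0 lower, with a median of 1.01. Slc22a22, a prostaglandin-specific organic anion transporter in mouse, read 9.22, 5.62 and 9.15. Slc22a29 read 8.12, 5.18 and 8.55, Slc22a30 read 7.24, 4.89 and 8.11, and Slc22a26 read 7.88, 7.18 and 9.14. Of these, Slc22a26 was the one with an NTS/PGE2 value more than 1 unit above control. Slc22a19, Slc22a26, Slc22a29 and Slc22a30 lie within a run of 6 protein-coding genes on chromosome 19 and are related copies, so probes may read more than 1 of them. Over all 379 solute carriers, 46 were counted higher and 8 lower, with a median of 0.05. The mitochondrial carrier Slc25a24 read 7.87, 9.73 and 7.30, the phosphate transporter Slc34a2, better known from lung, read 8.46, 10.38 and 8.38, and the lactate transporter Slc16a1 read 9.09, 11.12 and 9.21. These 3, highest on the NTS array, went against the family's larger side.

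The thick ascending limb, which reabsorbs salt without water, gave 9 of 18 genes counted higher and 0 lower, with a median of 1.05. Tmem207, a membrane protein gene of this list, read 10.01, 6.29 and 10.45, and epidermal growth factor (Egf), made by this segment, read 12.63, 9.53 and 12.94. The potassium channel Kcnj1, which recycles potassium for salt uptake, read 11.29, 9.35 and 11.47, and the sodium, potassium and chloride cotransporter Slc12a1 read 12.48, 11.14 and 12.78. In each of these the NTS/PGE2 array was slightly above control. The tight junction gene Cldn10 and the calcium-sensing receptor Casr differed by 1.69 and 1.20. The segment's most abundant product did not follow: Umod differed by 0.11, at a level near the top of the array's range.

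Further along the nephron the medians were smaller. In the distal convoluted and connecting tubule, 5 of 20 genes were counted higher and 0 lower, with a median of 0.63. The calcium-binding parvalbumin (Pvalb) read 8.42, 5.81 and 8.22, and the thiazide-sensitive cotransporter Slc12a3 read 12.79, 11.99 and 13.09. The kinase Wnk1 and its degradation adaptor Klhl3, both regulators of Slc12a3, differed by 1.05 and 1.25. Principal cells of the collecting duct, which move water under vasopressin, gave 5 of 17 genes higher and 0 lower with a median of 0.32. Their water channels Aqp4 and Aqp2 read 9.62, 7.00 and 9.82, and 10.23, 8.49 and 10.73. The vasopressin receptor Avpr2 read 8.55, 6.96 and 8.44. The sodium channel subunit Scnn1a lay on the other side of 0, at 11.42, 11.75 and 11.08, a difference of -0.67. Intercalated cells, which secrete acid or base, gave 4 of 21 genes higher and 0 lower with a median of 0.59, led by the ammonia channel Rhcg at 11.47, 9.64 and 11.41 and the anion exchanger Slc4a1 at 9.49, 7.64 and 9.27. The 21 subunits of the vacuolar proton pump they use had a median of 0.01 and 0 genes past 2-fold.

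Enzymes of amino acid breakdown were higher as a group. Of 46 measured genes, 21 were counted higher and 0 lower, and 41 had a difference above 0, with a median of 0.97. The tyrosine pathway enzyme Hpd read 12.00, 7.94 and 11.70, and the hydroxyacid oxidase Hao2 read 11.92, 9.49 and 12.33. Haao of the kynurenine pathway read 11.38, 9.40 and 11.18, dimethylglycine dehydrogenase (Dmgdh) read 10.74 on control and 10.75 on NTS/PGE2 with a difference of 1.75, and the hydroxyproline enzyme Prodh2 read 10.09, 8.08 and 9.82. All 5 were lowest on NTS, and all but Hao2 ended within 0.31 of control. The homocysteine methyltransferase Bhmt2 and beta-ureidopropionase (Upb1) differed by 1.73 and 1.53. Gatm and Aadat stand in this list and in those of the proximal tubule, so the lists are not separate evidence.

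The same held for glucose production, a task of the proximal tubule. Of 9 measured genes, 6 were counted higher and 0 lower, with a median of 1.22. Ketohexokinase (Khk), the entry to fructose use, read 11.82, 10.01 and 11.82, and the fructose transporter Slc2a5 read 11.35, 9.70 and 11.40. Fructose bisphosphatase (Fbp1) read 13.41, 11.91 and 13.36, pyruvate carboxylase (Pcx) 11.88, 10.63 and 11.86, and glucose-6-phosphatase (G6pc) 13.27, 12.06 and 13.14. The transporter Slc2a2, also in the list of the convoluted part, read 10.94, 9.48 and 10.83. The remaining members did not reach 2-fold. The rate-setting enzyme Pck1 read 13.45 and Pck2 8.36 on all 3 arrays, and Slc37a4 read 12.37, 11.89 and 12.22. Equal values on several arrays can come from the RMA summary, and what they hide was not tested. The median of 18 glycolysis genes was -0.10, with 1 counted higher, the aldolase Aldoc at 9.46, 8.17 and 9.36, and 0 lower.

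Fatty acid oxidation went both ways. Of 36 measured genes, 4 were counted higher and 1 lower, with a median of 0.00. The branched-chain oxidase Acox2 read 10.51, 8.79 and 10.60, and medium-chain acyl-CoA dehydrogenase (Acadm) read 12.97, 11.81 and 13.30. Pdk4, the kinase that shuts glucose carbon out of the mitochondrion, read 11.72, 13.63 and 11.92 and was the 1 lower gene. Long-chain acyl-CoA dehydrogenase (Acadl) lay on the same side as Pdk4, at 11.45, 12.15 and 11.41. The medium-chain acyl-CoA synthetases Acsm5, Acsm1 and Acsm2, mitochondrial enzymes of the tubule and liver, differed by 2.10, 1.93 and 1.01. In cholesterol synthesis 2 of 20 genes were higher and 0 lower with a median of 0.06, with the demethylase Cyp51 at 10.41, 7.97 and 10.82, and the synthase Hmgcs1 at 11.03, 10.09 and 11.19. The feedback regulator Insig1 was the lowest of that list, at 9.97, 9.81 and 8.97.

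Steroid and drug metabolism held some of the largest differences of either sign. In the list of hydroxysteroid dehydrogenases and steroid enzymes, 9 of 26 genes were counted higher and 1 lower, with a median of 0.20. Beside Akr1c14, the progesterone-inactivating Akr1c18 read 12.29, 9.38 and 12.81, and Hsd3b2 read 8.36, 5.88 and 8.57. Akr1c14 and Akr1c18 are neighbours on chromosome 13. The glucocorticoid-activating Hsd11b1 read 9.56, 6.99 and 8.90, and Hsd11b2, which inactivates glucocorticoid in the collecting duct, read 11.90, 10.25 and 11.56, so both directions of that conversion stood lowest on NTS. Of 86 cytochrome P450 genes, 6 were counted higher and 4 lower, with a median of 0.00. The drug-metabolising Cyp2d26 and Cyp2d12 read 12.86, 8.50 and 12.70, and 10.22, 5.69 and 9.85. The arachidonic acid hydroxylases Cyp4a12a and Cyp4a12b, which are neighbours on chromosome 4 and known in mice for being higher in males, read 8.04, 10.71 and 7.17, and 8.41, 11.52 and 7.82. Near copies in these families can share probes, and how far each value belongs to 1 gene was not tested. Of the glucuronosyltransferases, Ugt3a1 read 12.07, 9.76 and 12.72 and Ugt2b37 read 7.81, 9.67 and 7.20.

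Cyp27b1, which makes active vitamin D in the proximal tubule, was the lower gene of the steroid list. It read 11.98 on NTS, which was 2.98 above control, and 7.20 on NTS/PGE2, a difference of -4.78. NTS/PGE2 minus control was -1.80, and the NTS/PGE2 value lay near the array's median. Klotho (Kl), the co-receptor of the phosphate hormone FGF23, went the other way, at 11.60, 10.10 and 11.76. In the wider list of vitamin D, calcium and phosphate, 4 of 21 genes were counted higher and 1 lower, with a median of 0.00. The 4 were Slc34a3, Kl, Slc34a1 and Casr, and the calbindins S100g and Calb1 differed by 0.97 and 0.71.

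Endothelial genes stood higher with PGE2. Of 40 measured genes, 17 were counted higher and 0 lower, and 36 had a difference above 0, with a median of 0.82. The angiopoietin receptor Tek read 10.00, 7.74 and 9.84, and endoglin (Eng), a co-receptor for TGF-beta ligands, read 11.16, 9.15 and 11.04. The adhesion receptor Adgrl4 read 11.09, 9.25 and 10.86, the sialomucin Emcn 12.03, 10.19 and 11.78, and Esm1, a secreted proteoglycan, 8.10, 6.07 and 7.65. Plvap, which forms the diaphragms of fenestrated capillaries, read 10.97, 9.21 and 10.70, and the phosphatase Ptprb 10.28, 8.83 and 10.28. Of these 7, all lay lowest on NTS and none lay above control on NTS/PGE2 by more than 0.01. Igfbp5 and Igfbp3, binding proteins of insulin-like growth factors, differed by 1.96 and 1.42.

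Podocytes, the epithelial cells of the glomerular filter, had a median of 0.01. Of 28 genes, 2 were counted higher and 0 lower. Nephrin (Nphs1), of the slit diaphragm, read 7.36, 7.38 and 7.56, so it was dim on all 3 arrays. The podocyte transcription factor Wt1 read 8.30, 8.74 and 8.39, podocalyxin (Podxl) 11.34, 11.37 and 11.34, and Actn4, mutated in some inherited glomerular disease, 12.07, 12.14 and 12.02. The higher genes were Tcf21, at 9.02, 7.15 and 8.91, and nephronectin (Npnt), at 10.54, 9.96 and 11.05, which also stands in the principal cell list. In the list of mesangial cells, pericytes and renin cells, 1 of 14 genes was higher and 0 lower with a median of 0.29, with the growth factor receptors Pdgfra and Pdgfrb at 9.77, 8.44 and 9.51, and 10.04, 8.82 and 9.81. Of 9 genes of the renin-angiotensin system, 3 were higher and 0 lower with a median of 0.33. These were the peptidases Anpep, at 11.39, 10.10 and 11.84, and Ace, at 11.09, 9.91 and 11.51, and Mme, at 11.29, 10.59 and 11.66, all of them also brush border enzymes.

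Markers of tubular injury and repair were the list with the lowest median, at -1.37. Of 39 measured genes, 23 were counted lower and 1 higher. Some of the 23, Krt20 and Timp1 among them, passed the filter through the NTS array alone and could only be counted lower. Over all 39, without the filter, 35 had a difference below 0. Havcr1 (Kim-1), a phagocytic receptor that injured proximal tubule cells display, read 6.77, 12.63 and 7.50, which is 35.1-fold less than on NTS. Lcn2 (NGAL), an iron carrier of the injured tubule, read 11.86, 13.85 and 10.56, and the metalloproteinase inhibitor Timp1 read 6.70, 9.99 and 6.27. The calcium-binding S100a6 read 9.02, 10.07 and 7.28, Lgals3, a galectin of tubule cells and macrophages, 10.03, 11.85 and 9.59, and Dcdc2a, a microtubule-binding protein, 7.75, 9.79 and 7.53. Havcr1 alone of these 6 ended above control on NTS/PGE2. The higher gene was Tm4sf1, a tetraspanin-like protein also of endothelium, at 9.92, 8.38 and 9.92.

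Keratins, the intermediate filaments of epithelia, were a narrow part of that pattern. Of 52 measured keratins only 11 passed the filter, 4 were counted lower and 0 higher, and the median of all 52 was 0.00. Krt20 read 6.48, 10.93 and 6.18, Krt18 read 9.88, 10.74 and 8.68, and Krt8, the partner of Krt18 and its neighbour on chromosome 15, read 11.40, 12.62 and 11.25. Krt19 read 8.77, 8.87 and 6.56, and Sprr1a 11.45, 11.60 and 8.36, so both were as bright on control as on NTS. Those 2 genes are also markers of the urothelium, the lining of the renal pelvis, and that list had 3 of 17 genes lower, 1 higher and a median of 0.00. Its defining uroplakins were brightest on the control array and read 8.93, 7.50 and 7.11 for Upk1a, 9.05, 6.75 and 6.25 for Upk1b, and 8.15, 7.03 and 7.39 for Upk2. The urothelial surface gene Psca did the same, at 10.09, 6.85 and 6.29, so control values of genes that urothelium expresses may include it. The part of urothelium in the Krt19 and Sprr1a values was not tested.

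Cytoskeletal, S100 and annexin genes were lower as well. Of 42 measured genes, 12 were counted lower and 0 higher, with a median of -0.62. The actin-binding thymosin Tmsb10 read 8.67, 10.75 and 8.36, and annexin A1 (Anxa1), which dampens inflammation, read 8.09, 9.45 and 7.20. Annexin A2 (Anxa2) read 9.90, 11.42 and 9.47, and the tubulins Tubb2a and Tuba1a 8.63, 10.53 and 8.60, and 8.85, 10.23 and 8.68. All 5 were highest on NTS. Among 30 claudins and junction genes, 4 were lower and 1 higher, with a median of -0.04. The lower were Cldn4, at 9.70, 11.38 and 8.90, Cldn7, at 8.82, 10.33 and 9.05, Cldn3, at 8.49, 9.41 and 8.34, and the desmosomal plakin Dsp, at 9.28, 9.99 and 8.92. The higher one, Cldn10, belongs to the thick ascending limb and proximal tubule. Of 16 genes of the EGF receptor family and its ligands, Egf alone passed 2-fold. The receptor Erbb3 read 10.28, 11.20 and 10.32, the ligand Hbegf 8.19, 9.02 and 8.21, and Egfr itself 9.92, 10.03 and 9.84.

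Acute phase proteins, which the liver and injured epithelia make under interleukin-6, held 5 of the 8 largest negative differences. Of 26 measured genes, 11 were counted lower and 0 higher. Some of the 11, with Saa1, Saa2 and Orm2 among them, passed the filter through the NTS array alone and could only be counted lower. Over all 26, without the filter, 18 had a difference below 0. The median was -0.83, with 10 genes too dim for the filter. The serpin Serpina3n read 8.60, 12.21 and 7.20. The 3 fibrinogen chains read 8.23, 12.66 and 7.97 for Fgb, 9.02, 13.12 and 8.76 for Fgg, and 7.14, 10.08 and 7.54 for Fga, and they are adjacent on chromosome 3. The leucine-rich glycoprotein Lrg1 read 7.95, 11.41 and 7.40. The serum amyloids Saa2 and Saa1, neighbours on chromosome 7, read 5.36, 9.51 and 4.90, and 3.73, 7.67 and 4.05, so their sizes rest on values below the 25th percentile. Markers of liver were present at other levels: of 11 liver genes, 2 were counted higher and 0 lower, with albumin (Alb) at 9.86, 7.57 and 10.51, and apolipoprotein B (Apob) at 10.93, 11.03 and 10.93. Albumin and the fibrinogen chains therefore differed in opposite directions between the 2 arrays.

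The promoters of Fgb and Saa2 are shown because they belong to the acute phase genes with the largest differences and hold the letters of C/EBP-type motifs, and in Fgb STAT-type motifs, both known from acute phase genes. Serpina3n, which had the largest difference of the list, holds neither in its 250 bases and is not shown. Each is the 250 bases before the RefSeq start in GRCm38.p6, for Fgb at chr3:83049864-83050113 on the minus strand and for Saa2 at chr7:46751583-46751832 on the plus strand, written 5′ to 3′ with matches in capitals.
Fgb: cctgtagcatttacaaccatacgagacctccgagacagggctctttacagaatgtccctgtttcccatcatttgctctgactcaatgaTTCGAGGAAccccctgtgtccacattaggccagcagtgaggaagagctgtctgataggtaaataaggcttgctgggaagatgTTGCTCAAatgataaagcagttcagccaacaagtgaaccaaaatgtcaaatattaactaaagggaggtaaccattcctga
Saa2: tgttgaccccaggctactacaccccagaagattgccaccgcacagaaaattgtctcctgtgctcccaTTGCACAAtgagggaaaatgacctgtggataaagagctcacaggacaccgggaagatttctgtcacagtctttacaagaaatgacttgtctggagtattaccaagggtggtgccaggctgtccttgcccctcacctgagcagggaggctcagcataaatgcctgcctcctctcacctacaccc
In Fgb the first run of capitals is the STAT-type match, from -162 to -154 counted from the start, and the second the C/EBP-type match, from -80 to -73. The run in Saa2 is of the C/EBP type, from -183 to -176. The letters searched were TTCNNNGAA and TTGNGNAA, on both strands. The C/EBP-type letters stood in 10 of 21 promoters of the list (47.6%), against 10.7% of the 15614 measured genes with a promoter, and the STAT-type letters in 5 of 21 (23.8%), against 6.70%. A match describes the letters and does not show that a factor binds there.

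Signals upstream of these genes differed less. In the list of the interleukin-6 family and STAT3, 3 of 22 genes were lower and 1 higher, with a median of -0.11. The interleukin-6 gene Il6 read 3.47 and its relative Il11 6.46 on all 3 arrays, and both were too dim for the filter. Stat3 itself read 10.19, 11.49 and 10.26, the cytokine Clcf1 7.78, 9.32 and 8.08, and the transcription factor Cebpd 7.78, 9.42 and 7.95. The receptor Cntfr went the other way, at 9.51, 7.71 and 9.42, and Socs3, the feedback inhibitor of STAT3, read 7.20, 7.99 and 7.28, with -1.37 by its brightest probe set alone. Among 24 complement genes, 2 were higher and 1 lower, with a median of -0.02. Factor I (Cfi), which inactivates C3b and C4b, read 7.33, 9.33 and 6.72, and the C1 inhibitor Serping1 read 11.53, 9.80 and 11.09. Among 23 coagulation and fibrinolysis genes, 2 were lower and 1 higher, with a median of 0.00, and the plasminogen activator Plat read 9.90, 11.08 and 9.63.

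Genes of mitosis and cytokinesis stood lower with PGE2. Of 49 measured genes, 32 passed the filter, 26 were counted lower and 0 higher. Members that passed through the NTS array alone could only be counted lower, so the filter bears on that count. Over all 49, without the filter, 47 had a difference below 0, with a median of -1.28. The mitotic cyclin Ccnb2 read 6.90, 9.69 and 7.17, and its kinase Cdk1 read 6.51, 9.19 and 6.81. Cyclin A2 (Ccna2) read 6.52, 9.08 and 6.75, the proliferation marker Mki67 6.38, 8.75 and 6.45, and survivin (Birc5) 5.87, 8.11 and 6.04. Anln, of the contractile ring, read 5.79, 8.23 and 5.64. All 6 lay above the array median on NTS and below it on control, and Ccnb2 alone of the 6 also reached it on NTS/PGE2, where the median was 7.14. The kinesin Kif23, which builds the midbody, read 6.87, 9.44 and 7.65 and stayed 0.78 above control.

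DNA replication showed the same direction at smaller sizes. Of 40 measured genes, 5 were counted lower and 0 higher. Of those counted, Chaf1b, Rrm2, Mcm4 and Pole passed the filter through the NTS array alone and could only be counted lower. Over all 40, without the filter, 37 had a difference below 0, with a median of -0.50. The histone chaperone subunit Chaf1b read 6.76, 8.94 and 6.82 and the ribonucleotide reductase subunit Rrm2 7.08, 8.89 and 7.10. The helicase subunits Mcm4 and Mcm2 differed by -1.10 and -0.99. Cyclins, inhibitors and the RB family of the G1 phase gave 0 of 19 genes past 2-fold either way, with differences of 0.94 for the cyclin Ccnd2 and -0.88 for the kinase Cdk6. Of 22 p53 targets, 4 were lower and 0 higher with a median of -0.36, among them the sestrins Sesn2, at 9.26, 10.83 and 9.20, and Sesn1, at 9.09, 10.11 and 9.03.

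The promoters of Ccnb2 and Cdk1 are shown because the mitotic genes stood lower together and because many such genes carry CCAAT boxes and a cell cycle homology region (CHR) upstream. Anln, first in the mitosis list by size among genes in the table, holds neither in its 250 bases and is not shown. Each is the 250 bases before the RefSeq start in GRCm38.p6, at chr9:70421555-70421804 for Ccnb2 and chr10:69352913-69353162 for Cdk1, both on the minus strand, written 5′ to 3′ with CHR letters (TTTGAA) and CCAAT letters of either strand in capitals.
Ccnb2: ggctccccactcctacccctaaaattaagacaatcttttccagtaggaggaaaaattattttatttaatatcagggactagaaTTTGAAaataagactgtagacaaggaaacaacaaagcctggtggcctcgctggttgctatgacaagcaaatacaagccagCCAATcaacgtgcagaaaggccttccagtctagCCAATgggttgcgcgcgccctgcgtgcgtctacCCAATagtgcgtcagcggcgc
Cdk1: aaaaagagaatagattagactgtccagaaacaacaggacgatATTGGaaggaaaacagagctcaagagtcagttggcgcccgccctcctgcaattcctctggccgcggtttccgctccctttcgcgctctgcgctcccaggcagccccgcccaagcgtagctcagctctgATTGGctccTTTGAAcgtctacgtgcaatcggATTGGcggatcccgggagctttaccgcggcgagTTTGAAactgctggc
Ccnb2 held 1 CHR and 3 CCAAT matches, and Cdk1 held 2 and 3. The last CCAAT match of Ccnb2 lay at -21 to -17 counted from the start and the last CHR match of Cdk1 at -15 to -10. CCAAT letters stood in 31 of 41 mitosis promoters in the table (75.6%), against 35.5% of all measured genes with a promoter, and CHR letters in 16 of 41 (39.0%), against 13.7%. E2F-type letters (TTTNNCGC) stood in 10 of 34 replication promoters (29.4%), against 5.58%. These shares describe the lists, whose members were chosen for their known roles.

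**Figure D4:**
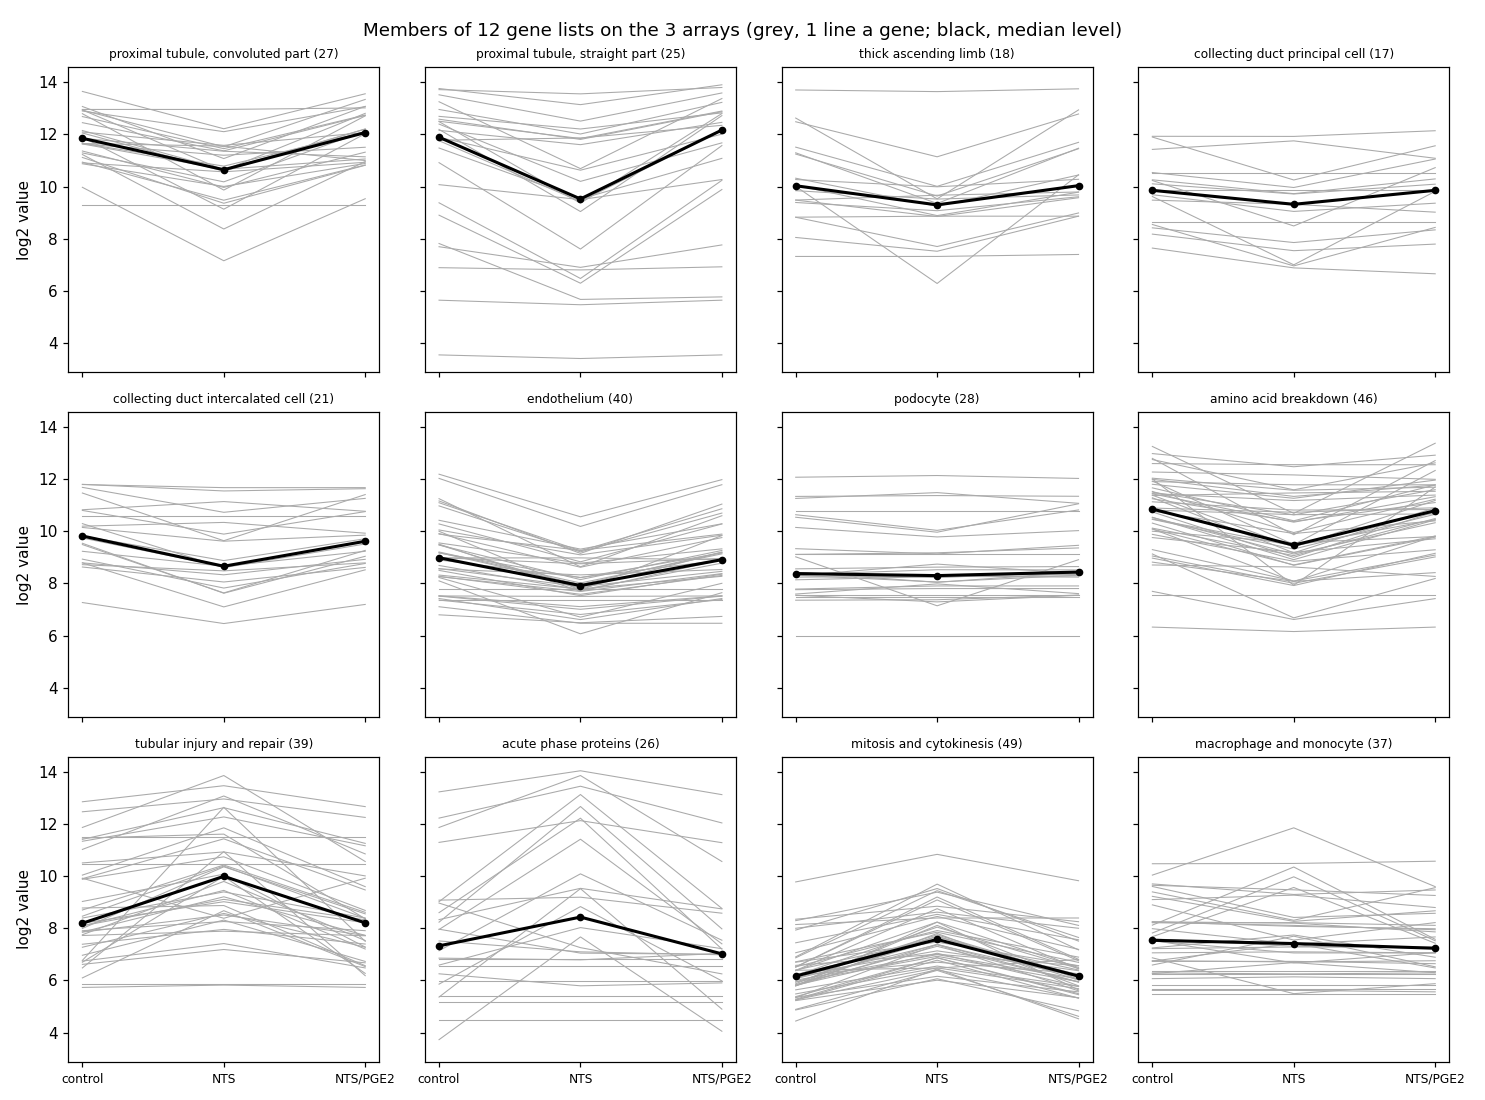
Log2 values of the measured members of 12 gene lists on the control, NTS and NTS/PGE2 arrays, 1 grey line a gene, with the median level of each array in black and the number of members in parentheses. The black line dips at NTS for the tubule, endothelium and amino acid lists, peaks there for tubular injury, acute phase and mitosis, and is nearly level for podocytes (8.38, 8.30 and 8.44) and macrophages (7.54, 7.41 and 7.23).

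Immediate early genes, which cells switch on within minutes of a stimulus, were mostly lower. Of 38 measured genes, 10 were counted lower and 0 higher, with a median of -0.52. The difference was below 0 in 26, above 0 in 6 and exactly 0 in 6. Above 0 were Dusp6, at 9.93, 8.83 and 9.78, and Fosb, at 7.32, 7.40 and 7.90, among others. Fos was dim, at 6.95 on both NTS and NTS/PGE2. The Krüppel-like factor Klf6 read 9.17, 10.87 and 9.16, and Zfp36, which destabilises cytokine transcripts, 9.99, 10.63 and 9.08. The AP-1 members Fosl2 and Junb read 8.64, 9.88 and 8.48, and 8.21, 9.07 and 7.94. Egr1 read 9.65, 9.21 and 7.74 and so stood highest on control. Stress programmes were mixed. In the list of the integrated stress and unfolded protein responses, 4 of 28 genes were lower and 0 higher with a median of -0.01: the mTOR inhibitor Ddit4 at 8.74, 10.57 and 8.63, Sesn2, the serine synthesis enzyme Psat1 at 8.80, 9.63 and 8.23, and the phosphatase subunit Ppp1r15a at 8.21, 9.12 and 8.05. Of 12 heat shock genes, 2 were higher and 1 lower, with the chaperone Hsph1 at 9.69, 8.33 and 10.56, Hspa1a at 9.70, 8.96 and 10.31, and the small heat shock protein Hspb1 at 10.89, 12.09 and 10.24. Of 21 targets of the oxidative stress factor NRF2, 3 were higher and 1 lower. Its own gene Nfe2l2 read 11.51, 9.52 and 11.63, and the heme oxygenase Hmox1 read 8.62, 10.73 and 9.67, which left it 1.05 above control.

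Clock and glucocorticoid genes differed in both directions. Of 18 clock genes, 6 were counted lower and 1 higher, with a median of -0.38. The activator Arntl read 7.26, 8.93 and 7.52 and its repressor Cry2 8.86, 9.48 and 8.37, while the output factors Hlf and Dbp read 10.35, 8.57 and 9.80, and 10.29, 8.79 and 9.74. The hour at which kidneys were taken is not given in the sources used here, and its part in these values was not tested. Of 16 genes of the glucocorticoid and mineralocorticoid response, 2 were higher and 2 lower. The lower ones, Fkbp5, at 9.15, 10.87 and 9.49, and Zbtb16, at 9.70, 11.62 and 10.49, are induced by glucocorticoid, and the higher ones were the enzymes Hsd11b1 and Hsd11b2 named above. Tsc22d3 and the other members did not reach 2-fold.

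Matrix genes lay on both sides. Of 40 measured genes of matrix and fibroblasts, 9 were counted lower and 3 higher, with a median of -0.24. Type I collagen (Col1a1) read 8.19, 10.24 and 8.16, fibronectin (Fn1) 9.60, 11.13 and 9.75, Tgfbi 9.07, 10.32 and 8.35, and tenascin C (Tnc) 7.79, 8.43 and 7.07. Basement membrane collagen Col4a1 differed by -1.12, and Col4a2, its neighbour on chromosome 8, by -1.01. The proteoglycan decorin (Dcn) read 11.68, 9.13 and 10.79 and the elastic fibre gene Fbln5 11.09, 9.18 and 10.63, so these 2 were lowest on NTS. Over all 44 collagen chains, 5 were lower and 0 higher, with a median of 0.00. Of 28 genes of TGF-beta and BMP signalling, 0 passed 2-fold either way, and Tgfb1 read 8.90, 8.96 and 8.61.

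Markers of neutrophils and lymphocytes were dim in these arrays, while 22 of 37 macrophage genes passed the filter. None of 14 neutrophil genes and none of 27 T and NK cell genes passed the filter, and the brightest of each list on the control array read 7.35, 6.53 and 6.83 (Il1b), and 7.11, 6.94 and 6.94 (Thy1). Of 10 B and plasma cell genes 1 passed, the syndecan Sdc1 at 8.17, 8.88 and 8.11, which epithelia also make. Macrophage and monocyte genes gave 5 of 37 lower and 1 higher, with a median of -0.04. The lysosomal Cd68 read 8.12, 10.34 and 7.58, the endotoxin co-receptor Cd14 7.82, 9.97 and 7.52, Plac8 7.67, 9.56 and 7.42 and the integrin Itgam 6.59, 7.69 and 6.52. The receptor Csf1r, which macrophages need to survive, went the other way at 9.39, 8.30 and 9.55, and the complement gene C1qb of resident macrophages read 9.64, 9.47 and 9.25. Markers within this list thus differed in opposite directions.

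Cytokines followed no single direction. Of 39 chemokines and cytokines, 3 were higher and 1 lower, with a median of 0.00 and 15 members bright enough for the filter. Il34, a second ligand of Csf1r made by tubule cells, read 7.80, 9.93 and 8.06. The epithelial chemokine Ccl28 read 10.74, 10.48 and 11.73, the stromal chemokine Cxcl12 9.79, 8.36 and 9.43, and Il15 8.32, 6.90 and 7.91. The monocyte chemokine Ccl2 read 6.43 on all 3 arrays, below the array median. In the interferon response, 3 of 32 genes were counted higher and 0 lower, and the median was 0.33: Ifit3 at 10.14, 8.14 and 9.82, the antiviral viperin gene Rsad2 at 9.63, 7.05 and 8.70, and Oasl2 at 8.95, 7.25 and 8.53. Antigen presentation gave 2 of 13 genes lower and 0 higher with a median of -0.22, both of class II, H2-DMa at 8.60, 9.51 and 8.22 and H2-Ab1 at 10.75, 11.37 and 10.36. Of 17 NF-kB targets and adhesion molecules 0 passed 2-fold, and Icam1 read 8.50, 9.61 and 8.61.

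Genes that make, move and clear PGE2 were measured too. Of 31 prostanoid and eicosanoid genes, 4 were counted higher and 0 lower, with a median of 0.07. On the side of synthesis, the phospholipase Pla2g4a read 8.09, 7.19 and 7.74, the inducible cyclooxygenase Ptgs2 7.93, 6.70 and 7.66, and the prostacyclin synthase Ptgis 8.24, 7.60 and 8.13, with differences of 0.55, 0.96 and 0.53. On the side of removal, Hpgd, which oxidises PGE2, read 10.13, 7.80 and 10.38, the carbonyl reductase Cbr1, which can turn PGE2 into PGF2-alpha, 11.98, 10.26 and 12.19, and the reductase Ptgr2 10.30, 8.57 and 9.85. The uptake carrier Slco2a1 read 10.14 on control and 10.41 on NTS/PGE2, with a difference of -0.59. Hpgd and Cbr1 were thus higher on NTS/PGE2 than on either other array, by 0.25 and 0.21 above control.

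The EP receptors were unequal. Ptger3, the receptor of the thick ascending limb and collecting duct, was the fourth 2-fold gene, at 8.82, 7.70 and 8.99. Ptger1 read 8.18, 7.54 and 7.80. Ptger4 read 7.59 on all 3 arrays. Ptger2 read 5.55 on all 3, which is under every array's 25th percentile. Downstream, the list of cyclases, phosphodiesterases and protein kinase A, with 30 genes, had a median of 0.00. It held 1 higher gene, the phosphodiesterase Pde1a at 9.78, 8.51 and 9.75, and 1 lower, the anchoring protein Akap12 at 7.85, 9.20 and 7.73. Of 19 genes responsive to CREB, the transcription factor that cyclic AMP activates, 2 were higher and 0 lower, with a median of 0.02. These were the small GTPase Gem at 9.02, 7.58 and 8.77 and Creb1 itself at 9.14, 8.17 and 9.31. The inducible repressor Crem read 7.81, 7.54 and 7.84. How long after the last dose the kidneys were taken is not given in the sources used here.

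Among 38 nephron transcription factors, 3 were higher and 2 lower, with a median of 0.08. The distal tubule factor Tfap2b read 9.73, 8.59 and 10.00, Sim1 9.50, 8.49 and 9.90, and the progenitor factor Sall1 9.15, 8.37 and 9.56, and each of the 3 was highest on NTS/PGE2. The lower ones were the mitotic activator Foxm1, at 6.19, 8.04 and 6.46, and Sox9, a factor of regenerating tubule, at 7.27, 8.57 and 7.27. Hnf4a, the factor of the mature proximal tubule, read 12.12, 11.55 and 12.29. Of 25 growth and trophic factors, 2 were higher and 0 lower: Fgf1 at 10.82, 9.37 and 11.21 and the growth hormone receptor Ghr at 12.58, 11.81 and 12.87.

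Genes past 2-fold whose NTS value lay near control were picked out after their values were seen. Of the 809 genes past 2-fold that have a usable name, 22 had an NTS value within 0.5 of control, and 6 of these were higher and 16 lower on NTS/PGE2. Sprr1a and Krt19 led the lower ones. The others included Egr1, the bile acid and steroid transporter subunit Slc51a, at 9.31, 9.74 and 8.36, the TGF-beta-inducible factor Klf10, at 9.45, 9.71 and 8.48, the alcohol dehydrogenase Adh1, at 12.50, 12.95 and 11.85, and the clock repressors Bhlhe40, at 10.48, 10.96 and 9.95, and Bhlhe41, at 6.78, 7.15 and 6.06. The higher ones were the amino acid transporter Slc6a15, at 8.46, 8.01 and 9.50, Banp, at 8.33, 7.96 and 9.21, Ccl28, Tmem267, at 9.08, 8.85 and 10.07, the growth factor Igf2, at 10.36, 9.97 and 11.07, and the proprotein convertase Pcsk6, at 9.21, 8.72 and 9.74. In these 6 the control value lay between the NTS and NTS/PGE2 values.

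**Figure D5:**
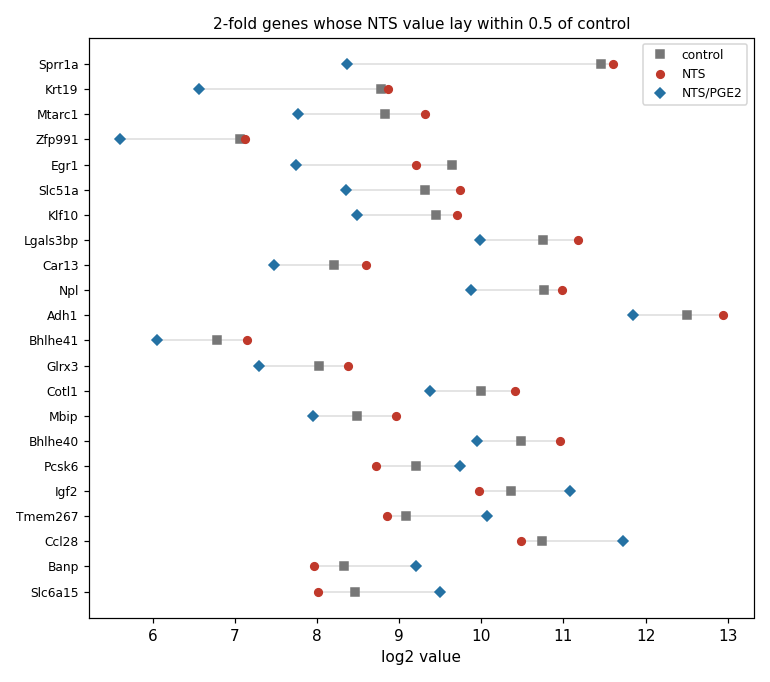
Log2 values on the control (grey squares), NTS (red circles) and NTS/PGE2 (blue diamonds) arrays of the 22 genes past 2-fold whose NTS value lay within 0.5 of control, 1 row a gene. The blue point lies apart on the low side for 16 genes, farthest for Sprr1a at 8.36 against 11.60, and on the high side for 6.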

How the data were processed

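RNA of mouse kidney was read on 3 Affymetrix Mouse Gene 1.0 ST arrays, 1 each for control, NTS and NTS/PGE2, with groups taken from the labels. The log2 values were used as deposited; the authors made them with RMA in Affymetrix Expression Console, per the submitters' processing notes. The genome build, like the software versions, was not given in the sources used here. Summarising by RMA can give a probe set the same value on several arrays, and what such equal values hide was not tested. Scanner files were not analysed here.

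Of 35556 probe sets, 21789 carried 1 gene symbol in the platform annotation, 1621 several and 12146 none in the table used. A RefSeq gene table of GRCm38.p6 held 21698 of the 21789, and 0 symbols were altered. Probe sets of a gene were averaged, which concerned 999 genes. A gene passed the filter where its brighter value on NTS or NTS/PGE2 was at or above its array's median, and size was called at 2-fold. There was no test. The arithmetic was tested on simulated data.

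The rule for naming genes took the 30 largest differences of each sign, up to 8 members of each list or family described, members past 2-fold against their list, and a preset group of kidney genes, of which some were not analysed here. Predicted genes, olfactory and vomeronasal receptors and small RNAs were passed over, 23 higher and 38 lower past 2-fold. The 63 lists and 31 families overlap, and members and lists were chosen with earlier results of these data known. Promoters are from a RefSeq table of GRCm38.p6. Alternatives were the filter, the size, the scaling, the choice of probe set, a floor on low values, the list summary and leaving out markers of other tissues. Work was done in Python 3.11.15 with pandas 2.3.3, numpy 2.4.6 and matplotlib 3.10.9.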

Additional observations from a re-analysis of the deposited data

Results flagged for a closer look

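Probe sets with several gene names or none entered no comparison in the text. They numbered 13767, and 5641 of them passed the same filter. Against the control array, 248 of the 5641 were at least 2-fold above it on NTS and 31 on NTS/PGE2. The filter used the NTS and NTS/PGE2 values and not the control value. Between NTS/PGE2 and NTS, 207 of the 5641 were higher and 316 lower past 2-fold, against 486 and 384 of the 11699 named genes. They were singled out because they were left out of the main measurement. The matching counts of named genes above control are not given here, so 248 and 31 cannot be read as particular to these probe sets. Whether their counts above control differ from those of named genes was not tested.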

How the results depend on the processing

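No paired analysis was possible because each group has 1 array. The counts of 486 higher and 384 lower genes moved by over 1.5 times with the size rule alone, to 1167 and 1045 at 1.5-fold and 90 and 68 at 4-fold. The other alternatives run gave 377 to 511 higher and 264 to 418 lower, and scaling shifted the median of all genes by at most -0.02.

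Over members passing the filter, list medians moved to -2.69 for acute phase proteins, -0.65 for urothelium, 0.49 for fat, 0.76 for liver, 0.84 for steroid enzymes, 0.94 for renin-angiotensin, -0.77 for B and plasma cells (1 gene) and 0.73 for erythrocyte precursors (2 genes). With the mean in place of the median the values were 1.51 for the straight proximal tubule, 0.58 for principal cells, -0.49 for urothelium, 0.55 for liver, 0.29 for erythrocyte precursors, -1.58 for acute phase proteins, 0.99 for gluconeogenesis, 0.53 for steroid enzymes, -0.29 for macrophages and 0.57 for renin-angiotensin. The median and the mean differed in sign for erythrocyte precursors (-0.15), the EGF receptor family (-0.02 and 0.10), NRF2 targets (-0.11 and 0.08) and laminins (0.03 and -0.01). The cause was not tested.

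Of 619 named genes, 8 moved with the brightest probe set and 6 with the floor, among the latter Saa2 to -3.72, Saa1 to -1.87 and Slc22a29 to 2.77. No 2-fold gene or list median past 2-fold changed sign. With 1 array a group, the spread between mice is unknown, and low values such as those of Saa1 may sit on background.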

Other observations

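Housekeeping machinery differed by little, and in opposite directions by kind. Of 70 cytosolic ribosomal proteins, 57 had a difference below 0, with a median of -0.31 and 4 counted lower and 0 higher. Rps12 read 10.86 on control, 12.19 on NTS and 10.67 on NTS/PGE2, and Rpl24 read 9.82, 11.06 and 9.78. Rps12 is measured by 14 probe sets and the family has many processed copies in the genome, so probes may read more than 1 of them. Of 45 proteasome subunits, 30 lay below 0 and 1 was counted lower, the core subunit Psma7 at 9.92, 10.64 and 9.61, with a median of -0.18. Subunits of respiratory complex I lay on the other side, with 29 of 43 above 0 and a median of 0.16, but 0 past 2-fold. Of 77 mitochondrial ribosomal proteins, 1 was lower, Mrps18c at 9.68, 10.71 and 9.49, and their median was 0.00. The muscle and brown fat isoform Cox7a1 was the 1 higher gene among 50 of the remaining respiratory complexes, at 10.95, 8.31 and 9.80. It is a gene that fat expresses, and fat was brightest on the control array, which takes no part in this difference. The part of fat in the Cox7a1 values was not tested.

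Among other families, 4 of 48 ABC transporters were counted higher and 0 lower. These were Abca13, at 10.97, 8.67 and 11.35, Abca8a, at 9.24, 6.77 and 8.88, the conjugate exporter Abcc3, at 10.02, 9.16 and 10.73, and Abca9, at 8.36, 6.93 and 8.16. Of 42 kinesins, 5 were lower and 0 higher, and all 5 (Kif23, Kif11, Kif18b, Kif18a and Kif20a) are motors of cell division, while the transport motor Kif5b read 10.17, 10.50 and 10.11. The lysosomal protease cathepsin D (Ctsd) read 12.19, 13.49 and 12.02 and was the 1 of 26 lysosome genes past 2-fold, with Ctsb, Lgmn and Ctsl at differences of -0.69, -0.63 and -0.61. Of 25 genes of the BCL2 family and death receptors, the pore-forming Bak1 alone passed 2-fold, at 8.71, 9.61 and 8.38, and the protective Bcl2l1 read 9.54, 10.52 and 9.67. Hypoxia genes gave 1 higher, the collagen prolyl hydroxylase P4ha1, at 9.33, 8.43 and 9.63, and 1 lower, Bhlhe40, of 19.

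The 350 zinc finger genes named Zfp had 3 counted lower and 1 higher, with a median of 0.00. The integrin subunit Itgb8, which frees TGF-beta from its latent form, read 11.34, 10.03 and 11.57. The laminin chains differed in sign, with Lamc1 at 9.08, 9.98 and 8.93 and Lama2 at 8.63, 7.60 and 8.63. The homeobox genes Hoxc6 and Hoxd4 read 8.73, 7.22 and 8.88, and 8.00, 7.29 and 8.44. The inward rectifier Kcnj2 was the 1 lower gene of 92 potassium channels, at 6.01, 7.46 and 6.17, against 3 higher.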
